A study of Mus musculus with 6 samples.

Results

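Complement is a cascade of plasma and cell-surface proteins that tags and lyses targets, and 9 of its genes were followed here: the proteases C1ra, C1s1 and C1rl, the components C3, C4b and Cfb, and the regulators Serping1, Cd55 and Cd59a. They were chosen by name as complement components and regulators, with earlier results of these data known. All 9 were found among the 38896 genes listed in the table of transcript counts. The samples were 6 cultures of colonic fibroblasts, the connective-tissue cells of the large bowel wall, isolated from distal colon of 3 mice, 6 weeks of age. After 2 passages the cells of each mouse spent 24 h in control medium or in inflammatory conditioned medium, and the labels name these groups control (n = 3) and DSS (n = 3). DSS is the usual abbreviation of dextran sulfate sodium, an agent of experimental colitis, and DSS libraries are read here as those of the inflammatory cultures. The labels place the words control and DSS in a genotype field, but no allele, transgene or strain is named for either group, and the sources used here do not give the way the medium was prepared. Mice 1716, 1717 and 1718 each gave 1 control and 1 DSS library, so the groups are paired by animal. The libraries held 17293680 to 19482938 estimated counts.

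In the classical pathway, C1q binds antibody or other ligands, the protease C1r activates C1s, and C1s cuts C4 and C2 into the enzyme that cleaves C3. Factor B, the product of Cfb, forms the C3-cleaving enzyme of the alternative pathway, which amplifies the reaction. Serping1 encodes the C1 inhibitor, which inactivates C1r and C1s, Cd55 dismantles the C3-cleaving enzymes on host cells, and Cd59a blocks the pore of the terminal pathway. Liver makes most complement in plasma, and fibroblasts are among the cells that make components locally.

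Of the 9 genes, 6 were higher in DSS (edgeR, quasi-likelihood, adjusted p under 0.05: C1ra, C1s1, C1rl, C3, C4b and Cfb), 0 were lower, and Serping1, Cd55 and Cd59a did not pass. All 9 passed the filter on low counts. Among all 19869 genes tested, 13.3% were called, 7.37% as higher and 5.91% as lower. The 9 genes were chosen with earlier results of these data known, so setting them beside these shares is not an independent test. When the mouse was added as a block to use the pairing, 7 of the 9 were higher and 1 lower, with Serping1 (adjusted p = 0.00247) and Cd59a (adjusted p = 0.00204) added, against 12.3% and 12.7% of all genes. The median fitted log2 fold change was 0.92 over the 9 genes and 0.01 over all genes tested. In 7 of the 9 genes every DSS library lay above every control library in CPM (estimated counts scaled to library size by TMM, per M counts), as in 17.8% of all genes tested, and in 1 every DSS library lay below, as in 16.5%. Only Cd55 had overlapping groups.

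**Figure D1:**
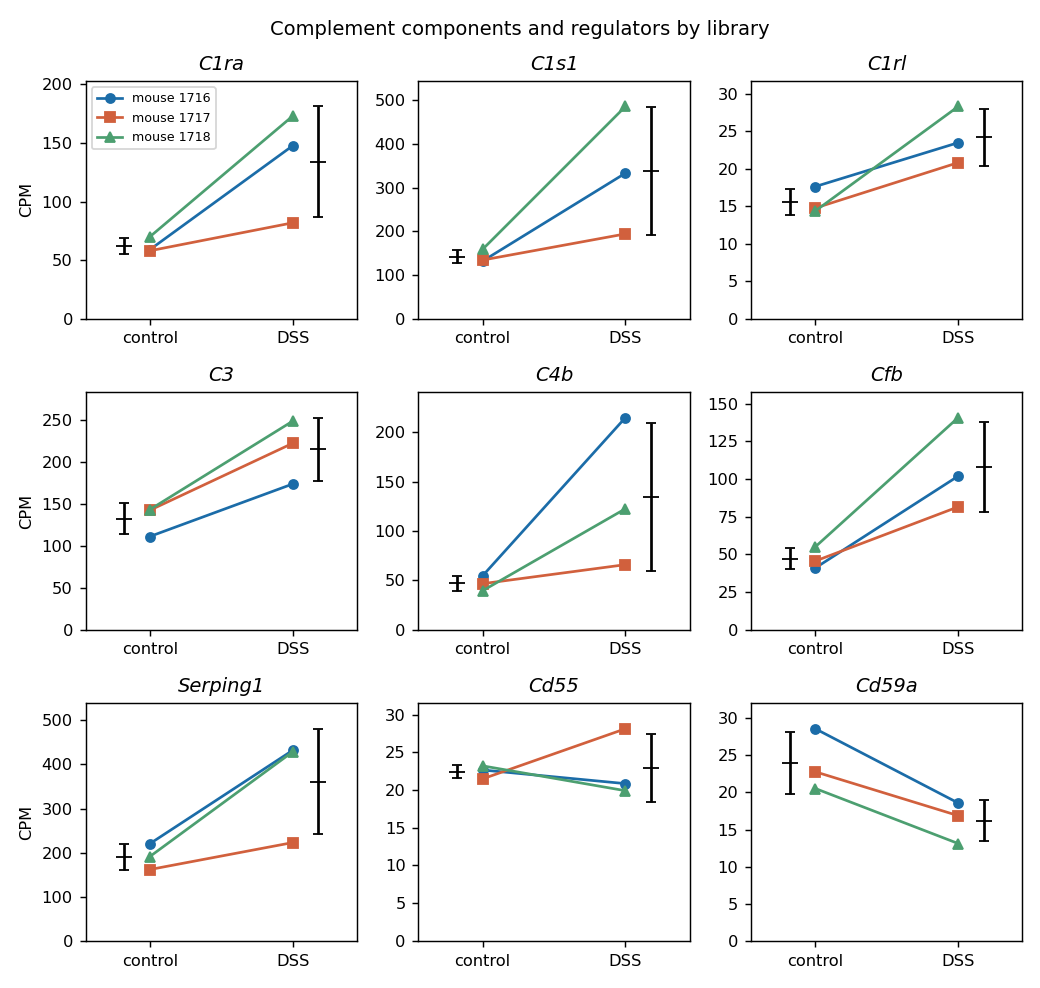
CPM of each of the 9 genes in the 6 libraries, with a line joining the control and the DSS culture of 1 mouse and black bars giving the mean ± SD (n = 3) of each group. Lines rise in every mouse for 7 genes, fall in every mouse for Cd59a and cross for Cd55, and the line of mouse 1717 is the flattest for C1ra, C1s1, C4b and Serping1.

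The initiating proteases rose. C1ra (NCBI Gene 50909, chromosome 6, 124512621 to 124523440, GRCm38) stood at 58.9, 57.9 and 69.9 CPM in the control cultures of mice 1716, 1717 and 1718 and at 148, 81.8 and 173 CPM in their DSS cultures. The log2 fold change was 1.11 ± 0.25 (SE; edgeR adjusted p = 0.0267), a 2.16-fold rise. The lowest DSS library, that of mouse 1717, was still above the highest control.

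C1s1 (NCBI Gene 50908, chromosome 6, 124530344 to 124542392), the partner protease, was at 132, 134 and 159 CPM in control and 333, 194 and 486 CPM in DSS. Its log2 fold change was 1.25 ± 0.29 (edgeR adjusted p = 0.0304), and it lost the call when only curated transcripts were summed (edgeR adjusted p = 0.0594). In each library C1s1 had between 2.24 and 2.81 times the counts of C1ra. This ratio was 2.24, 2.31 and 2.27 in control and 2.26, 2.37 and 2.81 in DSS, so the pair kept close to 1 proportion in 5 libraries and lay higher in DSS of mouse 1718.

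C1rl (NCBI Gene 232371, chromosome 6, 124493113 to 124510643), a protease related to C1r, was less abundant, at 17.6, 14.8 and 14.4 CPM in control and 23.5, 20.8 and 28.3 CPM in DSS. It rose by 0.63 ± 0.14 on the log2 scale (edgeR adjusted p = 0.0227). The groups did not overlap, and the largest difference was in mouse 1718. C1rl, C1ra and C1s1 are neighbours: 1977 bases separate C1rl from C1ra, both on the plus strand, and 6903 bases separate C1ra from C1s1, which lies on the minus strand.

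C3, the component on which all complement pathways converge, had the most even rise. C3 (NCBI Gene 12266, chromosome 17, 57203967 to 57228136) was at 111, 142 and 143 CPM in control and 173, 222 and 248 CPM in DSS. In mice 1716, 1717 and 1718 this was a 1.56-, 1.56- and 1.74-fold difference, and the fitted log2 fold change was 0.70 ± 0.15 (edgeR adjusted p = 0.0232). Mouse 1716 had the lowest level in both groups. With the block the SE was 0.06.

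C4b (NCBI Gene 12268, chromosome 17, 34728139 to 34743902), the C4 component that C1s cuts, had the largest and least even change. It was at 54.6, 46.7 and 39.5 CPM in control and 215, 65.9 and 123 CPM in DSS, which is 3.93-, 1.41- and 3.10-fold within mice 1716, 1717 and 1718. Mouse 1716 was highest in both groups, and mouse 1718 was lowest in control but not in DSS. The log2 fold change was 1.52 ± 0.38 (edgeR adjusted p = 0.0395), and with limma-voom or with curated transcripts only C4b did not pass (adjusted p = 0.0612 and 0.0538).

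Cfb (NCBI Gene 14962, chromosome 17, 34856374 to 34862514) had the smallest p of the 9 genes. It was at 41.0, 45.6 and 55.1 CPM in control and 102, 81.6 and 141 CPM in DSS, and rose by 1.20 ± 0.20 on the log2 scale (edgeR adjusted p = 0.00954). Every mouse showed at least a 1.79-fold difference. Counts of Cfb per count of C3 went from 0.37, 0.32 and 0.39 in control to 0.59, 0.37 and 0.57 in DSS, higher in DSS in each mouse but with overlapping groups.

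Serping1 (NCBI Gene 12258, chromosome 2, 84765360 to 84775444), the C1 inhibitor, was at 220.3, 162 and 191 CPM in control and 432, 223 and 429 CPM in DSS. The log2 fold change was 0.92 ± 0.25 and did not pass (edgeR adjusted p = 0.0517). It passed with the mouse as a block (0.87 ± 0.12, edgeR adjusted p = 0.00247), with DESeq2 (0.00165) and without a filter on low counts (0.0481). The DSS library of mouse 1717 lay only just above the highest control. Counts of C1ra and C1s1 together per count of Serping1 were 0.87, 1.19 and 1.20 in control and 1.11, 1.24 and 1.54 in DSS.

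Cd59a (NCBI Gene 12509, chromosome 2, 104095753 to 104115410), the inhibitor of the membrane pore, went the other way. It was at 28.6, 22.8 and 20.5 CPM in control and 18.6, 16.9 and 13.1 CPM in DSS, with every DSS library below every control. The log2 fold change was -0.57 ± 0.17 and did not pass (edgeR adjusted p = 0.0642), while it passed with the block (-0.56 ± 0.08, edgeR adjusted p = 0.00204), with DESeq2 (0.0221) and with curated transcripts only (0.0458).

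Cd55 (NCBI Gene 13136, chromosome 1, 130429798 to 130465009), the surface protein that dismantles C3-cleaving enzymes, showed no common direction. It was at 22.7, 21.5 and 23.2 CPM in control and 20.8, 28.1 and 19.9 CPM in DSS. Only mouse 1717 had more Cd55 in DSS. The log2 fold change was 0.03 ± 0.14 (edgeR adjusted p = 0.911), and its sign turned without DSS 1717 (-0.14) or without mouse 1717 (-0.17). Of its counts 12.4% fell on the curated transcript, and 46.2% on 1 predicted noncoding model, so the sum is not a measure of protein-coding Cd55 RNA. With curated transcripts only the log2 fold change was 0.43. The curated transcript itself was estimated at 32.1, 38.2 and 63.4 counts in the control libraries and at 31.7, 119 and 19.4 in the DSS ones.

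Mouse 1717 had the smallest difference of the 3 mice in 6 of the 7 genes that were higher in every mouse. One of these is C3, where mice 1716 and 1717 were nearly equal (log2 differences of 0.644 and 0.642). The median log2 difference over the 9 genes was 0.97, 0.50 and 1.16 in mice 1716, 1717 and 1718. Over all genes tested it was 0.01, -0.00035 and -0.0041. TMM scaling tends to hold that median near 0 in any mouse, so it does not show how strongly each mouse responded. Whether the smaller difference in mouse 1717 is particular to these genes was not tested. For C4b the log2 differences were 1.97, 0.50 and 1.63, and for C1s1 they were 1.34, 0.53 and 1.61. C1rl was the exception, with its smallest difference in mouse 1716 (0.41).

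**Figure D2:**
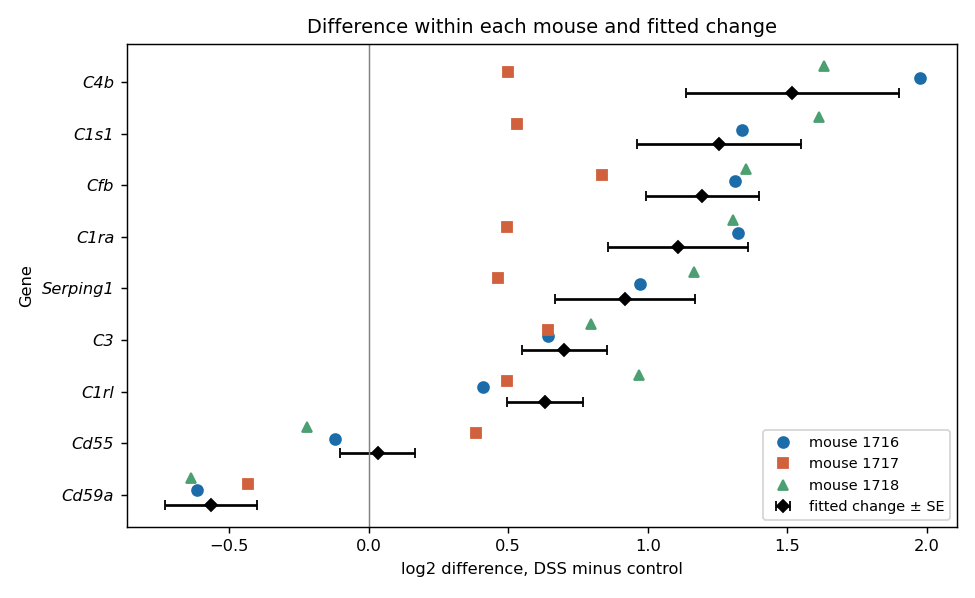
Log2 difference of DSS minus control within each mouse (coloured symbols) and the fitted log2 fold change ± SE (black diamonds) for the 9 genes, ordered by fitted change. Mouse 1717 lies apart from the other mice at 0.50 for C1ra, 0.53 for C1s1 and 0.50 for C4b, while the mice lie close together for C3.

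Apart from that of Cfb, the calls of the fit without a block were lost in most fits that left out libraries. In the 9 fits that left out 1 library or both libraries of 1 mouse, C1ra, C1s1 and Serping1 passed only without DSS 1717 and without mouse 1717, C3 only without DSS 1716 and without mouse 1716, and C4b only without DSS 1717. Where they did not pass, the edgeR adjusted p ran from 0.0617 to 0.149 for C1ra, 0.0513 to 0.143 for C1s1, 0.0836 to 0.263 for Serping1, 0.0543 to 0.161 for C3 and 0.0515 to 0.2 for C4b. C1rl passed without control 1716, DSS 1716 or DSS 1717 (otherwise 0.0501 to 0.149), and Cd59a in 0 of the 9 (edgeR adjusted p = 0.0545 to 0.248). Cfb passed in 8 of the 9 and was lost without mouse 1716 (edgeR adjusted p = 0.057). The block was also combined with leaving out each mouse, a combination chosen after seeing the data. There Cfb, C3, C1ra, C1s1, C1rl, C4b, Serping1 and Cd59a each passed without mouse 1716, without mouse 1717 and without mouse 1718, at an edgeR adjusted p of at most 0.0328.

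Per kilobase of transcript, Serping1 was the most abundant of the 9 genes in both groups, at 108 ± 16.5 CPM per kb in control and 204 ± 67.8 in DSS (mean ± SD, n = 3). C1s1 followed at 48.7 ± 5.13 and 116 ± 50.2, and the SD ranges of Serping1 and C1s1 overlapped in DSS but not in control. The genes were read in the same libraries, so overlap of SD ranges, here and below, does not settle their order within a library. In control C3 (25.7 ± 3.55), C1ra (20.9 ± 2.23), Cfb (17.3 ± 2.62) and Cd59a (14.2 ± 2.45) came next, and the SD ranges of neighbours in this order overlapped. Cd55 (8.86 ± 0.35) and C4b (8.72 ± 1.40) could not be ordered, and C1rl (5.18 ± 0.59) was lowest. For Cd55 the counts of all its transcripts were divided by the length of the curated one, which held 12.4% of them. The place of Cd55 in either group is therefore not that of protein-coding Cd55 RNA. In DSS the order after C1s1 was C1ra (44.99 ± 15.8), C3 (41.8 ± 7.38), Cfb (39.5 ± 11.0) and C4b (25.0 ± 14.0), each overlapping its neighbour. Cd59a (9.57 ± 1.65), Cd55 (9.06 ± 1.77) and C1rl (8.04 ± 1.26) made up the low end.

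**Figure D3:**
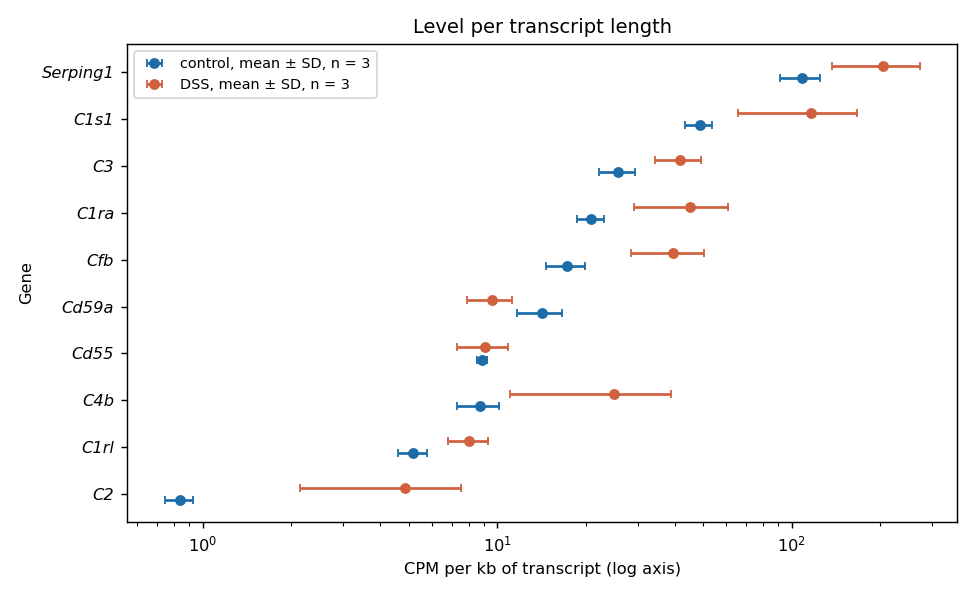
Level per kilobase of transcript (CPM per kb, log axis) of the 9 genes and of C2 in control and DSS, as mean ± SD over 3 libraries. C4b lies at 8.72 CPM per kb in control and 25.0 in DSS, below Cfb at 17.3 and 39.5, and C2 is lowest in both groups. For Cd55 most counts were not on the curated transcript whose length was used, so its value is not that of protein-coding RNA.

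Several of the 9 genes have close copies in the mouse genome, among which estimated counts can be divided wrongly. The copies held few counts: 0.0941% of the pair's counts fell on C1rb, 0.208% on C1s2, 0.968% on C4a and 0.477% on Cd55b, and 13.1% on Cd59b. Summing each gene with its copy moved no call (C4b, edgeR adjusted p = 0.0406; Cd59a, 0.0621). C1s1 was spread over several transcripts, with 67.0% of its counts on the most abundant. The share of that transcript was 70.8, 82.1 and 78.0% in control and 60.9, 73.4 and 59.5% in DSS, lower in DSS in each mouse but with overlapping groups.

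The other complement genes were a list of 53. Of the 31 that passed the filter on low counts, 2 were higher in DSS and 8 lower by edgeR, beside 7.37% and 5.91% of all genes tested, and the median log2 fold change was -0.17. C8b and C9, of the terminal pathway, were at 0 in all libraries. With the block 3 were higher and 11 lower, beside 12.3% and 12.7% of all genes. Leave-out fits of these genes, and of the transcription factors below, were run without the block only.

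C2, which is cut by C1s and pairs with C4, had the largest fitted rise of all complement genes tested. C2 (NCBI Gene 12263, chromosome 17, 34862602 to 34882100) was at 1.98, 2.47 and 2.18 CPM in control and 20.1, 5.90 and 12.3 CPM in DSS (log2 fold change 2.53 ± 0.43, edgeR adjusted p = 0.00985, and 0.00169 with the block). In the fit without a block it did not pass when mouse 1718 was left out (edgeR adjusted p = 0.0964). The level of C2 was low in control, and here too the smallest difference was in mouse 1717. C2 and Cfb lie on the same strand, and 87 bases separate the end of C2 from the start of Cfb.

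The subunits of C1q, the recognition part of the C1 complex, fell while its proteases rose. C1qa went from 54.1 ± 4.14 to 26.9 ± 8.17 CPM, C1qb from 71.7 ± 5.38 to 37.6 ± 8.48 CPM and C1qc from 48.0 ± 4.24 to 24.0 ± 4.48 CPM (n = 3). The log2 fold changes were -1.004 ± 0.20, -0.93 ± 0.16 and -1.001 ± 0.14 (edgeR adjusted p = 0.0168, 0.0102 and 0.0052). C1qa lost its call without control 1717, DSS 1717, mouse 1717 or mouse 1718 (edgeR adjusted p = 0.0551 to 0.177) and C1qb without mouse 1717 (0.11). C1qa, C1qb and C1qc passed with the block (edgeR adjusted p = 0.00241, 0.0021 and 0.000221). Macrophages are the main source of C1q, and macrophage markers were plainly present: all 14 passed the filter, with Lyz2 at 1359 ± 324 CPM in control and 711 ± 197 in DSS. Of these 14, which include the C1q genes and Itgam, 6 were lower and 1, Cd68, was higher. With the block 9 were lower, with Mrc1 (edgeR adjusted p = 0.000844), Csf1r (0.0157) and Cd14 (0.0228) added. Ptprc, the pan-leukocyte marker, was at 36.2 ± 4.41 and 30.6 ± 4.56 CPM and did not pass (edgeR adjusted p = 0.278). The summed level of the 14 ranged from 2300 to 3233 CPM in control and from 1378 to 2273 CPM in DSS. The part of macrophages in these results, and in those of the 9 genes, was not tested, and in bulk RNA fewer cells of a type and less RNA per cell cannot be told apart.

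In the lectin pathway Masp1, which encodes MASP proteases, had the largest fall of the list. Masp1 went from 53.0, 43.9 and 71.4 CPM in control to 9.65, 13.1 and 11.7 CPM in DSS. Its log2 fold change was -2.29 ± 0.20 (edgeR adjusted p = 0.00107), and it passed in each of the 9 leave-out fits. Colec12, a collectin of the cell surface, was at 196 ± 7.63 CPM in control and 133 ± 1.86 in DSS. This fall passed in edgeR (adjusted p = 0.00231, and 0.000657 with the block). In the fit without a block it did not pass when mouse 1717 was left out (0.0509). Cfp, which encodes properdin, the stabiliser of the alternative C3-cleaving enzyme, fell from 81.1 ± 10.8 to 42.9 ± 14.0 CPM (edgeR adjusted p = 0.0327). Among the 9 leave-out fits it passed only without DSS 1717 and without mouse 1717 (otherwise 0.0511 to 0.198). It did not pass when curated transcripts alone were summed (0.0593), and it passed with the block (edgeR adjusted p = 0.000695).

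The other regulators named here did not pass in the fit without a block. Cr1l, the mouse surface regulator Crry, was at 34.4 ± 4.21 and 27.6 ± 1.23 CPM, lower in DSS in each mouse, with edgeR adjusted p = 0.0854 and 0.0285 with the block. Cd46 and C1qbp had log2 fold changes of 0.16 ± 0.12 and 0.23 ± 0.16. Csmd1, a large membrane protein with complement control domains, differed more between mice than between groups, at 285, 184 and 102 CPM in control and 216, 138 and 82.6 in DSS (edgeR adjusted p = 0.61, and 0.00315 with the block). Csmd3 also varied by mouse, at 1.71 to 8.54 CPM in control and 2.05 to 15.9 in DSS (edgeR adjusted p = 0.639, not passing).

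Among receptors, Itgam, the alpha chain of complement receptor CR3, fell from 305 ± 28.7 to 173 ± 37.4 CPM (edgeR adjusted p = 0.0132, and 0.000366 with the block). In fits without the block the call was lost without control 1717, mouse 1716 or mouse 1718. Itgax, the alpha chain of CR4, rose from 3.80 ± 0.81 to 11.1 ± 0.75 CPM (edgeR adjusted p = 0.00215), and passed in each of the 9 leave-out fits. Their shared beta chain Itgb2 was at 119 ± 22.6 and 170.0 ± 20.8 CPM, with edgeR adjusted p = 0.0646 without the block and 0.00456 with it. C5ar1, the receptor of the C5a fragment, fell from 28.8 ± 1.52 to 21.5 ± 2.47 CPM (edgeR adjusted p = 0.0342), a call that among the 9 leave-out fits held only without DSS 1717 (otherwise 0.0613 to 0.17) and that was lost when curated transcripts alone were summed (0.07). C5ar1 passed with the block (edgeR adjusted p = 0.0164). C3ar1, the receptor of C3a, was at 52.1 ± 6.53 and 46.2 ± 8.92 CPM and did not pass (edgeR adjusted p = 0.508). Cd93, a receptor once thought to bind C1q, was at 118 ± 20.4 and 73.9 ± 26.8 CPM, with edgeR adjusted p = 0.14 without the block and 0.00355 with it. Itgam, Itgax and Itgb2 are leukocyte genes, and the macrophage values above apply to them too. The part of macrophages in the values of Cfp, C5ar1, C3ar1 and Cd93 was not tested either.

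**Figure D4:**
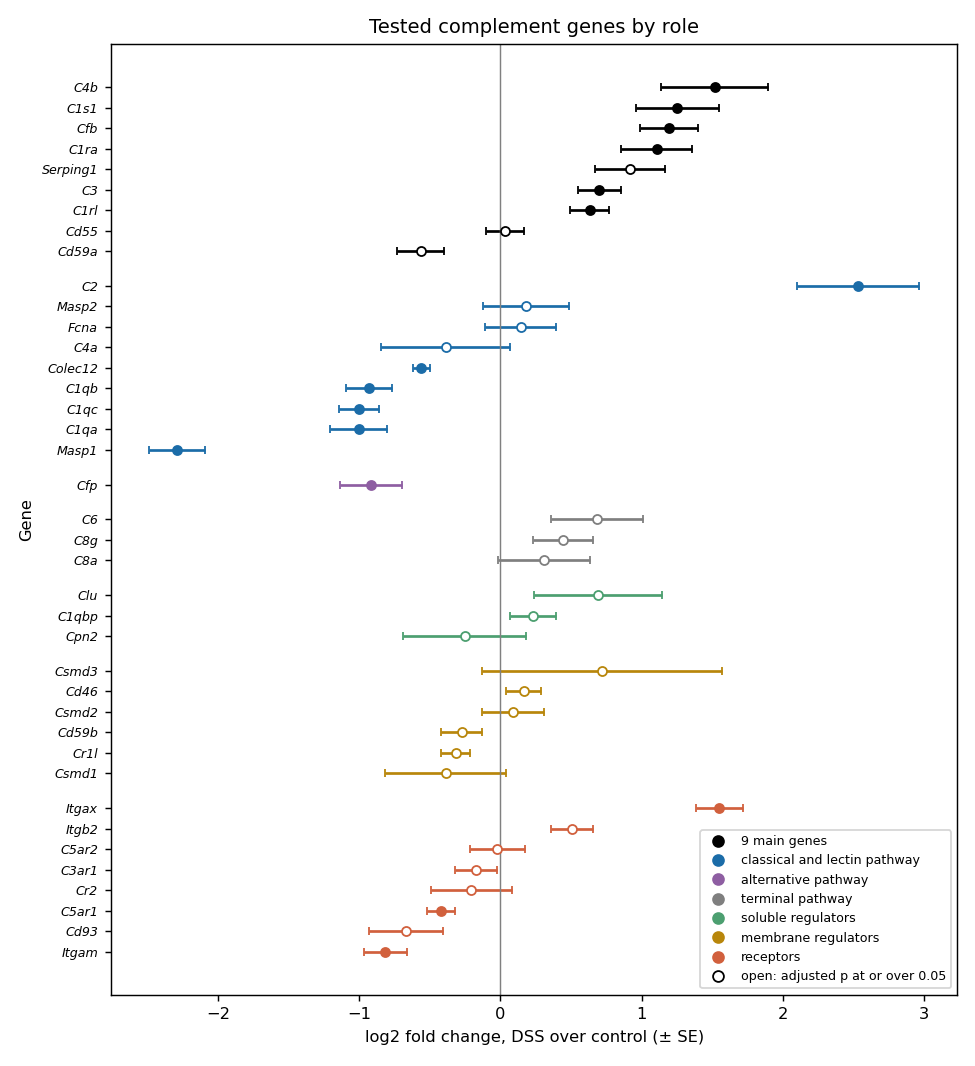
Fitted log2 fold change of DSS over control ± SE for the 9 genes (black) and other complement genes tested, grouped by role, with filled points for an adjusted p under 0.05. C2 at 2.53 and Masp1 at -2.29 are the extremes, and the 3 C1q genes lie from -1.004 to -0.93.

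The cultures carried the defining markers of fibroblasts. All 9 markers passed the filter, with Pdgfra at 599 ± 94.1 CPM in control and 980.1 ± 127 in DSS, and 5 of the 9 were lower and 1, Pdgfra, higher in DSS. Dcn was at 1708 ± 163 CPM in control and 2362 ± 335 in DSS, higher in each mouse (edgeR adjusted p = 0.0557, and 0.00385 with the block). Pdgfrb and Vim, which are not collagens, were lower (edgeR adjusted p = 0.0155 and 0.0113). Thy1 was lower in each mouse (edgeR adjusted p = 0.246, and 0.00861 with the block). The sum of the 9 was 37349 to 44062 CPM in control and 20128 to 24719 in DSS, most of it from the collagens Col1a1, Col1a2 and Col3a1, which fell. Its part in the results of the 9 complement genes was not tested. Epithelial markers were low: 3 of 9 passed the filter, Cdx2 was at 0 in all libraries, and the sum of the 9 was 13.5 to 17.7 CPM in control and 8.51 to 9.55 in DSS. Only Muc2 among them was called, falling from 9.17 ± 2.13 to 2.12 ± 0.57 CPM (edgeR adjusted p = 0.00269, and 0.000176 with the block). Glial markers summed to 95.8 to 323 CPM in control and 59.4 to 261 in DSS, and endothelial ones to 15.2 to 21.4 and 12.2 to 16.4. Smooth muscle markers summed to 1427 to 1455 CPM in control and 1088 to 1249.9 in DSS, mesothelial ones to 3.34 to 6.03 and 2.33 to 3.42, and lymphocyte ones to less than 1 CPM in each library.

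Transcription factors known to act on complement genes were read in the same fit, and 7 of 10 were higher in DSS, beside 7.37% of all genes tested. This list too was chosen with earlier results of these data known. Irf1, an interferon-induced factor, was at 39.4, 34.9 and 35.3 CPM in control and 255, 78.9 and 241 CPM in DSS (2.39 ± 0.40, edgeR adjusted p = 0.00929, and 0.00161 with the block). In fits without the block this call was lost when mouse 1716 or mouse 1718 was left out. Irf1 had its smallest difference in mouse 1717, as most of the 9 complement genes did, and whether these are related was not tested.

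Smaller rises were those of Stat2 (1.46 ± 0.22), Irf9 (0.89 ± 0.14), Stat3 (0.32 ± 0.07), Cebpb (0.47 ± 0.10) and Cebpd (0.48 ± 0.10). Stat2 did not pass without mouse 1716 (edgeR adjusted p = 0.0505), nor Irf9 without mouse 1717 (0.0587). Among the 9 leave-out fits, Stat3 kept its call only without DSS 1716, Cebpb only without DSS 1716 or mouse 1716, and Cebpd only without control 1716, DSS 1716 or mouse 1716. Stat2, Irf9, Stat3, Cebpb and Cebpd passed with the block (edgeR adjusted p = 0.000587, 0.00111, 0.01, 0.00378 and 0.00809). For Cebpd, a factor of the acute phase response, the log2 difference was 0.21, 0.59 and 0.67 in mice 1716, 1717 and 1718, so mouse 1717 was not the lowest. The nuclear factor kappa B subunits Nfkb1 (0.34 ± 0.10), Rela (0.12 ± 0.08) and Relb (0.18 ± 0.12) did not pass, and Nfkb1 passed with the block (edgeR adjusted p = 0.0739 without it and 0.0165 with it).

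Sequence before the start site could be read for C1ra, C1s1, C1rl, C3 and Cd59a from RefSeq windows of 300 bases on GRCm38.p6. Both strands were searched for a GAS element of STAT factors (TTCNNNGAA), an ISRE core (GAAA, any 2 bases, GAAA), a C/EBP site (TTGCNNAA) and the nuclear factor kappa B consensus. These are held by 8.30%, 3.44%, 10.8% and 8.46% of all 32851 such windows. Stretches outside annotated exons with a match are shown because 3 of them are from genes that rose, with the matched bases in capitals. For C3 (chr17:57228137-57228386, minus strand), C1s1 (chr6:124542393-124542609, minus strand) and C1rl (chr6:124492863-124493112, plus strand) the match is the C/EBP site, and for Cd59a (chr2:104095551-104095752, plus strand) it is the ISRE core.
C3: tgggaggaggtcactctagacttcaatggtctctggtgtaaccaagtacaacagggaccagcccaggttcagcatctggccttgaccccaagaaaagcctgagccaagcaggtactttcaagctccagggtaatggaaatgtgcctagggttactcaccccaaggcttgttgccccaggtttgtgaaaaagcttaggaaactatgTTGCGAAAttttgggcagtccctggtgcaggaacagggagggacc
C1s1: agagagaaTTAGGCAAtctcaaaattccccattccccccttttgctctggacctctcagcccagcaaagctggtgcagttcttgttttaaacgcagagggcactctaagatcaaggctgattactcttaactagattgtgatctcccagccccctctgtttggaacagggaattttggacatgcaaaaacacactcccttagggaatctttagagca
C1rl: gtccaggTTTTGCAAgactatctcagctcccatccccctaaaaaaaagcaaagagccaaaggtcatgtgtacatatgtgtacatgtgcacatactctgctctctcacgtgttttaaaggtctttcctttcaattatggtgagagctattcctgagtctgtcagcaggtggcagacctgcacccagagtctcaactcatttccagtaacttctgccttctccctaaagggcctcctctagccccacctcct
Cd59a: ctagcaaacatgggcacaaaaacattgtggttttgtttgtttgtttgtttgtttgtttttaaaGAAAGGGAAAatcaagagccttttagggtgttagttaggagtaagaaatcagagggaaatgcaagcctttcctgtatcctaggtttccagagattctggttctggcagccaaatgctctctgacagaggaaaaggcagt
The C3 match lies at positions -45 to -38 from the start site, that of C1s1 at -242 to -235, that of C1rl at -243 to -236 and that of Cd59a at -187 to -178. The window of C1ra held a GAS and a C/EBP match, both after its start site, and that of Cd55 held 0 of the 4 motifs. A second RefSeq window of C1s1 (chr6:124542272-124542571), at another start site, also held 0. A match is a description of letters, not a site in use.

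The genes whose level most resembled that of C3 over the 6 libraries were Thrb (Pearson r = 0.998), Mir155hg (0.995) and Ttc38 (0.995), out of 11329 genes averaging 5 CPM or more. Predicted genes, with names of Gm and digits or ending in Rik, were passed over and are not among the 11329. The correlation is a description over 6 libraries that share the group difference. Thrb, a thyroid hormone receptor, was at 1.40, 2.69 and 2.86 CPM in control and 5.22, 9.79 and 12.1 CPM in DSS. Mouse 1716 was lowest in both groups as for C3, which is no further likeness because Thrb was picked by this correlation. Ttc38 did not pass (edgeR adjusted p = 0.135).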

How the data were processed

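Strand-specific libraries were prepared from total RNA after removal of ribosomal RNA, per the labels' protocols. The authors deposited estimated counts per transcript, unscaled, from kallisto per the submitters' processing notes, with GRCm38 and mm10 as builds; the sources used here do not state its version or settings. Estimated counts (120299 transcripts; 17293680 to 19482938 per library) were summed per gene and rounded to whole numbers. Genes passing edgeR's filterByExpr (minimum count 10, minimum total 15) were scaled by TMM and compared in edgeR (glmQLFit, glmQLFTest; term: group) with Benjamini-Hochberg adjustment over 19869 genes. CPM values use the TMM factors, and per-mouse log2 differences a prior count of 2. The SE is the size of the log2 fold change over the square root of F. Length per kb is that of the GENCODE M21 transcript matched to the most abundant curated transcript. Positions are RefSeq's on GRCm38.p6.

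Libraries pair by animal: across genes, deviations from the group means correlated at 0.35, 0.21 and 0.46 within mice 1716, 1717 and 1718. The members and lists were chosen with earlier results of these data known. Named were all 9 genes, other complement genes that passed, that reached 5 CPM or that are close copies, transcription factors, and the 3 genes most like C3; some of these are not reported here. Alternatives were DESeq2, limma-voom, other scalings, no filter, curated transcripts only, sums with close copies, the mouse as a block and leaving out libraries or mice. The fit was tested on simulated data. Statistics used edgeR 4.0.16, DESeq2 1.42.0 and limma 3.58.1 under R 4.3.3, and tables and figures Python 3.11.15 with pandas 2.3.3 and matplotlib 3.10.9.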

Additional observations from a re-analysis of the deposited data

How the results depend on the processing

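Of 162 values of the 9 genes under 18 alternatives each, 110 kept direction and side of the threshold, 39 lost the call, 10 gained it and 3 turned sign, all 3 for Cd55 (-0.00076 without control 1717, -0.14 without DSS 1717 and -0.17 without mouse 1717, where it was also -0.17 with the replicate block). The count of the 9 that were higher ranged from 1 to 6 over fits without 1 library or 1 mouse. Of the 9, 0 were lower in the fit without a block, and 1, Cd59a, was lower with the replicate block in edgeR, with it in DESeq2, with DESeq2 alone and with curated transcripts only. Of all genes, 1465 were higher and 1174 lower, 2447 and 2518 with the replicate block, 842 and 666 with curated transcripts only, and 378 to 1310 and 185 to 1108 over fits without 1 library or 1 mouse. Of the other complement genes the counts over those fits were 1 to 2 higher and 4 to 7 lower. The log2 fold change of Cd55 over those fits ranged from -0.17 to 0.14. The block changed no other call of the 9 genes than those of Serping1 and Cd59a. Leaving out libraries lowers the number of samples, and the fits without a block make no use of the pairing.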
